A study of Mus musculus with 108 samples.

Results

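The report concerns 10 mouse genes of antigen processing and presentation, taken by their symbols in the platform annotation from the 15129 genes with values on these liver arrays. The class I route held 6 of them: Psmb8, Psmb9 and Psmb10, the catalytic subunits of the immunoproteasome, Tap1 and Tap2, the peptide transporter of the endoplasmic reticulum, and Tapbp, which encodes tapasin. The class II route held the other 4: H2-Aa, H2-Ab1 and H2-Eb1, which encode chains of the class II molecules, and Cd74, the invariant chain. Where a symbol had several probes the brightest was used, and the 10 genes had 16 probes with values between them. No member was set aside for a low signal, but values were listed or empty for whole groups of 3 arrays. All 10 genes could be tested in every Wy-14,643 comparison, while Tap1 (8 h and 1 day), Tap2 (8 h) and H2-Aa (1 day) had an empty group in the clofibrate arm and so no value in its mean. For H2-Aa this holds for the probe used, as a slightly dimmer probe had values on all 108 arrays.

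The livers came from ovariectomized female C57BL/6 mice that received clofibrate, Wy-14,643 or sesame oil by gavage, with both compounds at 300 mg/kg. Livers were taken 2, 4, 8, 12, 18 and 24 h after 1 dose, and on days 1, 4 and 14 of daily dosing, the day 1 groups being separate from the 24 h groups. Each compound had its own vehicle group at each time, which gives 36 groups of 3 samples, each on its own single-colour array (108 arrays). All mice, treated and vehicle, were without ovaries, and whole liver was measured, so that fewer cells of a type and less RNA per cell cannot be told apart. Levels are log2 intensities scaled to the 75th percentile of each array, and a difference is treated minus time-matched vehicle on that scale with its standard error (SE). A difference passed when limma's adjusted p, by Benjamini-Hochberg over all genes of that comparison, was under 0.05.

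Cells cut cytosolic proteins with the proteasome. Interferon gamma exchanges the catalytic subunits Psmb5, Psmb6 and Psmb7 of the constitutive proteasome for Psmb8, Psmb9 and Psmb10, whose products suit class I molecules. The peptides are carried into the endoplasmic reticulum by the Tap1 and Tap2 heterodimer and loaded onto class I molecules with the help of tapasin, a route open in nearly all cells, hepatocytes included. Class II molecules and the invariant chain are made mainly by professional antigen-presenting cells, which in liver are Kupffer cells, dendritic cells and B cells, under the transactivator encoded by Ciita. The C57BL/6 strain carries a functional beta chain gene H2-Eb1 but no functional alpha chain for that class II molecule. Clofibrate and Wy-14,643 are agonists of PPAR alpha, the nuclear receptor that drives fatty acid oxidation genes in liver.

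Arrays of the clofibrate arm listed 15750 to 21658 probes and those of the Wy-14,643 arm 19738 to 22227. Known PPAR alpha targets rose with both compounds, 4 of the 4 tested in the mean over the 9 times: Pdk4, a regulator of glucose oxidation, by 4.20 on the log2 scale with Wy-14,643 and 1.96 with clofibrate, and Ehhadh, an enzyme of peroxisomal beta-oxidation, by 1.53 and 1.78. In the clofibrate arm the replicate 1 vehicle arrays at 4 and 14 days were nearly the same array (Pearson r 0.9999719 over probes) and may be 1 sample listed at both times. That array, and the replicate 1 vehicle array at 4 days in the Wy-14,643 arm, stood above the other vehicle arrays of their groups for most members. Results of the members at 4 days that rest on them, the clofibrate means and the Wy-14,643 mean of Cd74 are given with and without these 3 arrays. Values of the other Wy-14,643 means, of the class I route compound differences and of the marker lists are printed with them only. Same-numbered vehicle arrays of the arms deviated together from their group means at 9 of 9 times (mean r over genes 0.137 to 0.692), and the labels do not say whether the arms shared vehicle mice, so a likeness between the compounds is not used as support for either.

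Of the 10 members, 7 had a promoter entry in the RefSeq table of build GRCm38.p6 (not Tap2, H2-Ab1 or Cd74). Sequences are shown for genes whose starts lie close together or that carry letters known from these pathways, since the members lie close together on chromosome 17 apart from Psmb10 on chromosome 8 and Cd74. Psmb9 (chr17:34182030-34187330) and Tap1 (chr17:34187556-34197225) start 226 bases apart and run away from each other, and the whole interval between them, chr17:34187331-34187555 on the + strand, is printed first. Capitals there mark a Y box, the CTGATTGG element that binds the factor NF-Y in promoters of class II and many other genes, read on the strand of Psmb9, with its first base 11 bases before that start. In the 250 bases before Psmb8 (chr17:34197945-34198194, + strand) capitals mark a match to TTCNNNGAA, the form of the gamma-activated site bound by STAT proteins. In those before H2-Aa (chr17:34287824-34288073, - strand) they mark the X2 box TGACGTCA and a Y box, and in those before H2-Eb1 (chr17:34305617-34305866, + strand) a Y box.
Psmb9 and Tap1 interval: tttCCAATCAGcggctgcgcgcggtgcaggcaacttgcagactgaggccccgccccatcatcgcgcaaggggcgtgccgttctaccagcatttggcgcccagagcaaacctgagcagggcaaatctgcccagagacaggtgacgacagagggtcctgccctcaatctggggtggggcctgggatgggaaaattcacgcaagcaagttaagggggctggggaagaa
Psmb8 promoter: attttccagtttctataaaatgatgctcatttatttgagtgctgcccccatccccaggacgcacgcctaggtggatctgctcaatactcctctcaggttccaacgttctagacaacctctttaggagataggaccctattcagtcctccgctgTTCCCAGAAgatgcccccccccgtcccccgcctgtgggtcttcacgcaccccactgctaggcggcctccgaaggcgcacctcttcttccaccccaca
H2-Aa promoter: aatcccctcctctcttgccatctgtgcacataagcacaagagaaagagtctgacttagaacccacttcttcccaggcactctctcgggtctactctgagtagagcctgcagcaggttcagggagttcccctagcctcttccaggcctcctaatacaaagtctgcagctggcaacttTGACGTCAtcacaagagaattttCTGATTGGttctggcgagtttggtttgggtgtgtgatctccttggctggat
H2-Eb1 promoter: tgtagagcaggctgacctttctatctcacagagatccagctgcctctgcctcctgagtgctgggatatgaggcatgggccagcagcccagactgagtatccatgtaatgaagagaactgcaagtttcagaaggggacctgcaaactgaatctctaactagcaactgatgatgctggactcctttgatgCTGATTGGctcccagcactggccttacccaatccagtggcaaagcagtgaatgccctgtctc
Both strands were searched from 250 bases before to 50 after each start. The Y box was in 4 of the 7 member windows, Psmb9 and Tap1 sharing 1 copy, and in 4.1% of 32851 windows of all genes. TGACGTCA was in 1 of 7 windows against 1.79%, and TTCNNNGAA in 1 of 7 against 8.3%. The core of the interferon-stimulated response element, GAAA repeated after a spacer of 2 bases (3.44% of windows), and the direct repeat of the PPAR response element, AGGTCA repeated after a spacer of 1 base (0.0396%), had no exact match in the 7 windows. These are matches of letters and no measure of binding.

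With Wy-14,643 the immunoproteasome and the class I route fell together. All 6 members passed as lower in the mean over the 9 times, in a comparison in which 35.6% of 10252 genes passed as lower and the median of all genes was -0.07. The 3 immunoproteasome subunits had the lowest values: Psmb8 fell by 0.95 (SE 0.08, 1.94-fold, adjusted p = 2.96e-14), Psmb9 by 0.89 (SE 0.09, 1.86-fold, adjusted p = 1.18e-11) and Psmb10 by 0.79 (SE 0.08, 1.73-fold, adjusted p = 3.38e-11). The transport and loading genes fell less far, Tap2 by 0.56 (SE 0.05, 1.48-fold), Tapbp by 0.46 (SE 0.06, 1.37-fold) and Tap1 by 0.35 (SE 0.08, 1.27-fold). At single times 28 of 54 class I route differences passed as lower, where 8.48% of all gene-by-time differences did, and in 37 of 54 all treated arrays lay below all vehicle arrays, where 19.6% of all did. With the replicate number as a block 19% of all gene-by-time differences passed as lower, the share to set beside the blocked values below. The share of genes that passed as lower was 2.25% at 2 h, 6.3% at 4 h, 9.13% at 8 h, 10.1% at 12 h, 12.1% at 18 h, 10.5% at 24 h, 16.1% at 1 day, 4.3% at 4 days and 5.34% at 14 days, and the class I route members that passed at these times were 0, 0, 4, 3, 5, 5, 5, 4 and 2 of 6.

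**Figure D1:**
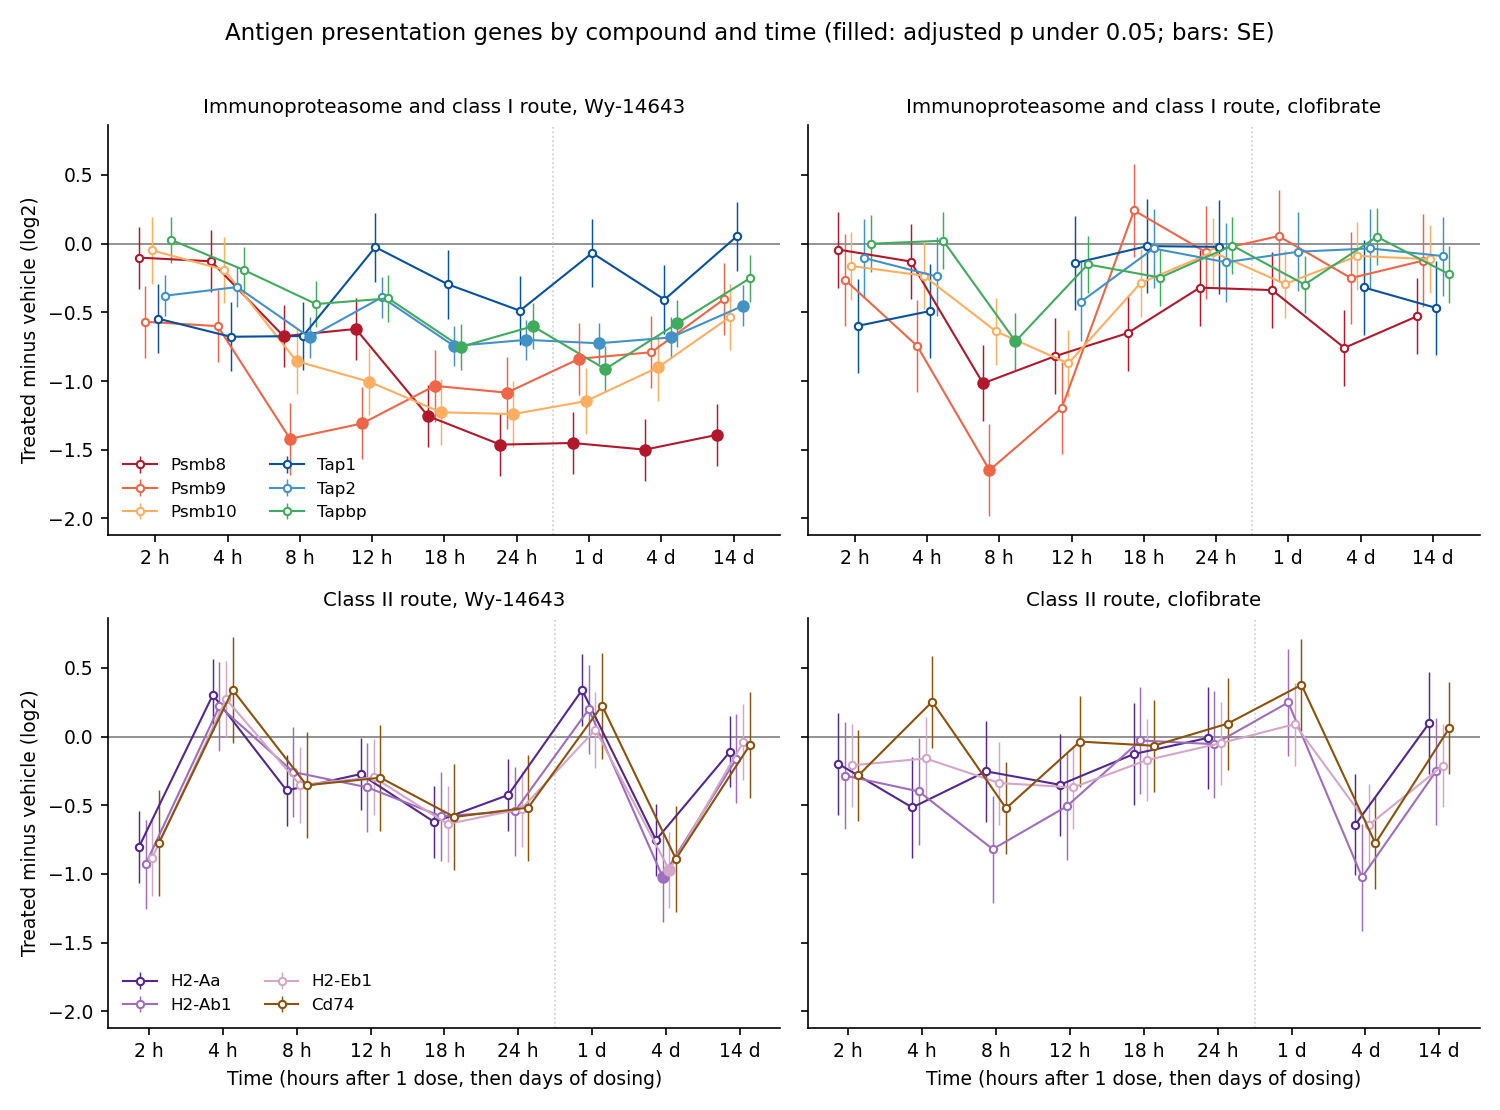
Treated minus time-matched vehicle (log2, vertical axis) for each gene at each time (horizontal axis, hours after 1 dose and then days of dosing), with SE bars and filled points where the adjusted p was under 0.05. With Wy-14,643 Psmb8 stays between -1.26 and -1.50 from 18 h to 14 days, while the 4 class II genes have like values, at -0.78 to -0.93 at 2 h and 0.05 to 0.34 at 1 day.

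Psmb8 encodes the chymotrypsin-like subunit LMP7. At 2 h its levels with Wy-14,643 were 12.90, 12.42 and 12.34 against 12.73, 12.62 and 12.61 with vehicle, so the groups overlapped. At 24 h the treated levels were 11.22, 11.51 and 11.24 and the vehicle levels 13.19, 12.73 and 12.44. The lowest vehicle liver was thus above the highest treated liver, as at every time from 8 h on, by little at 12 h (12.23 against 12.06). The difference passed at each of those 7 times: -0.67 at 8 h, -0.62 at 12 h, -1.26 at 18 h, -1.46 at 24 h, -1.45 at 1 day, -1.50 at 4 days and -1.39 at 14 days (adjusted p 0.0341, 0.0466, 4.34e-05, 5.46e-06, 7.08e-06, 7.3e-06 and 1.11e-05). Over 18 alternative runs of the processing it no longer passed in 6 at 8 h and in 8 at 12 h, and it passed in all 18 at the later times. The effect itself varied over the 9 times by limma's F test (F = 6.52, adjusted p = 0.000425), a test that 22.5% of genes passed. Without the high vehicle array the 4-day difference was -1.13 and still passed (adjusted p = 0.00069). A dimmer probe of Psmb8 gave a mean difference of -0.96 with Wy-14,643.

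Psmb9, the LMP2 subunit that shares its promoter interval with Tap1, was lowest early. At 8 h the treated levels were 11.09, 11.22 and 11.19 and the vehicle levels 12.65, 12.46 and 12.65. At 12 h they were 10.78, 10.76 and 10.79 against 12.25, 11.94 and 12.07. The treated arrays at these times agreed closely and lay more than a log2 unit below every vehicle array. The difference passed from 8 h to 1 day (-1.42, -1.31, -1.04, -1.08 and -0.84), and was -0.79 at 4 days (adjusted p = 0.0515, and 0.0252 with the replicate number as a block) and -0.41 at 14 days without passing. Over 18 alternative runs it no longer passed in 1 at 18 h and 5 at 1 day, where it was -0.22 with the values as deposited. At 4 days the vehicle levels were 14.41, 12.49 and 12.62, and without the first of these arrays the difference was -0.17, or -0.19 with the block (adjusted p = 0.618). The variation of the Psmb9 effect over the times did not pass (F = 1.72, adjusted p = 0.283).

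Psmb10, the MECL-1 subunit, reached its lowest values at 18 and 24 h. The treated levels at 18 h were 13.63, 13.73 and 13.51 and the vehicle levels 14.84, 14.81 and 14.90, with no overlap. The difference passed from 8 h to 4 days (-0.86, -1.004, -1.23, -1.24, -1.15 and -0.90) and was -0.53 at 14 days (adjusted p = 0.147, and 0.0249 with the replicate block). Over 18 alternative runs Psmb10 no longer passed in 2 at 8 h, 1 at 1 day and 4 at 4 days. Its effect varied over the times (F = 3.33, adjusted p = 0.0293). At 4 days the groups overlapped, with vehicle levels of 16.01, 15.09 and 14.53, and without the high array the difference was -0.50 and no longer passed (adjusted p = 0.244), while with the block it was -0.60 (adjusted p = 0.0474). On the 2 near-identical clofibrate-arm vehicle arrays the Psmb10 probe lay within 0.1 of the brightest value the arrays list, so its level there may be understated.

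**Figure D2:**
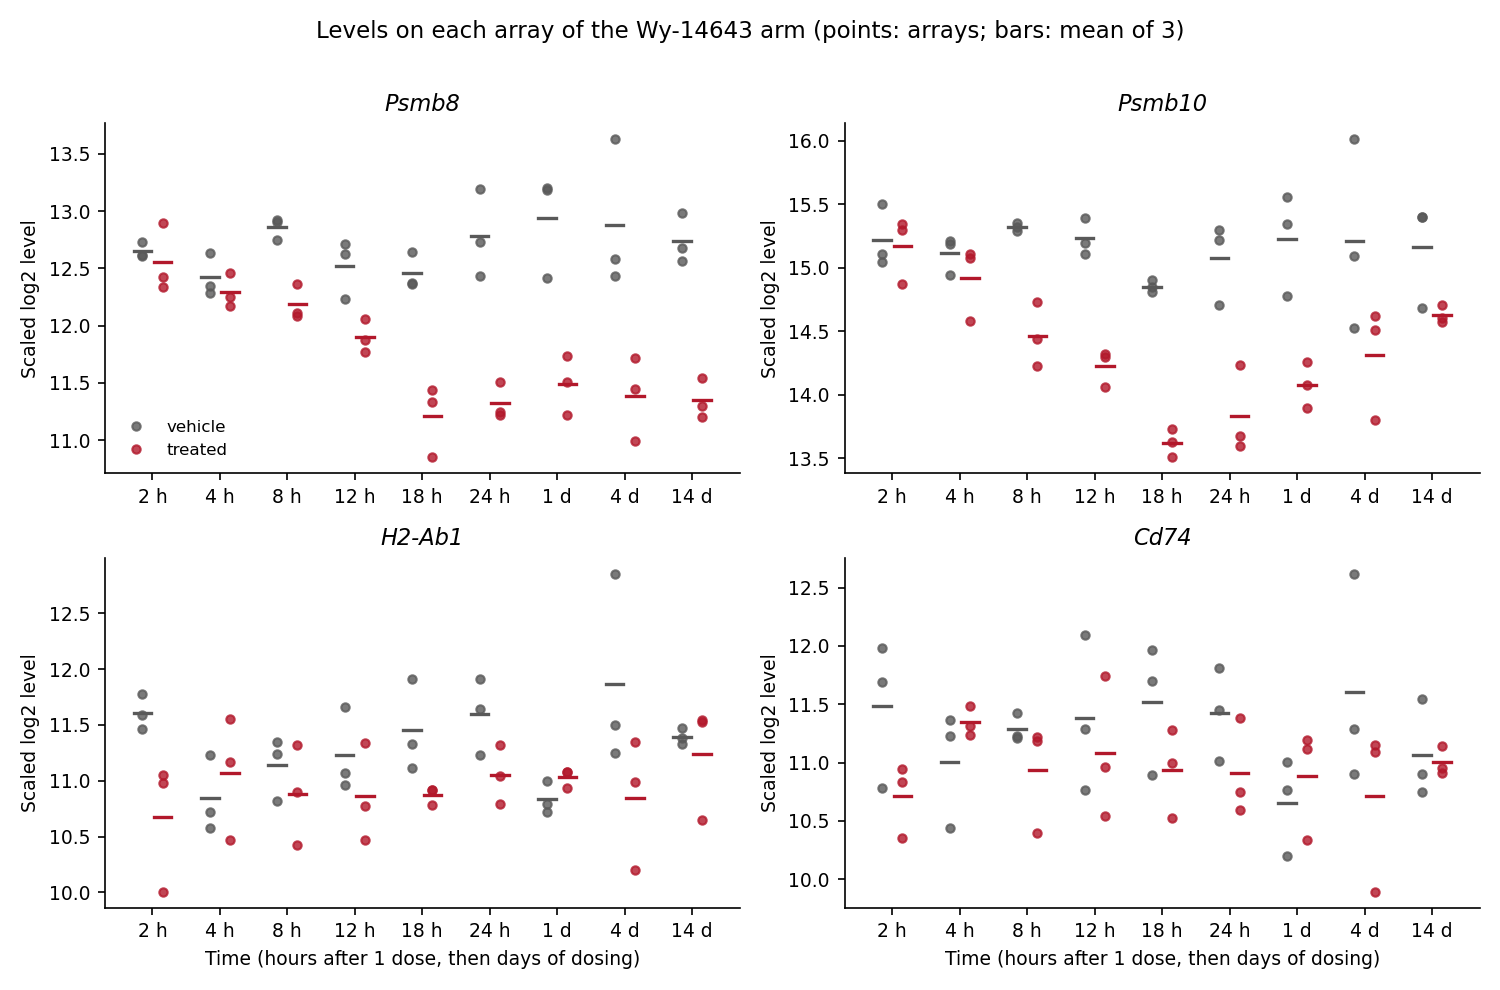
Scaled log2 levels (vertical axis) of Psmb8, Psmb10, H2-Ab1 and Cd74 on each array of the Wy-14,643 arm at the 9 times (horizontal axis), points being arrays and bars the means of 3. Psmb8 and Psmb10 treated arrays lie below all vehicle arrays from 8 h to 1 day, H2-Ab1 and Cd74 arrays overlap at most times, and the replicate 1 vehicle array at 4 days is the highest of its group in all 4 genes.

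Of the transport genes, Tap2 passed at 6 times and Tap1 at none. Tap2 levels at 1 day were 10.30, 10.09 and 10.16 with Wy-14,643 and 11.00, 10.81 and 10.92 with vehicle, and the treated arrays lay below all vehicle arrays at 8 of 9 times. Its differences that passed were -0.68 at 8 h, -0.75 at 18 h, -0.70 at 24 h, -0.72 at 1 day, -0.68 at 4 days and -0.45 at 14 days. With the values as deposited it was -0.31 at 24 h and -0.10 at 1 day. Over 17 alternative runs it no longer passed in 1 at 24 h, 1 at 1 day, 3 at 4 days and 6 at 14 days. With the replicate block Tap2 also passed at 2 h (adjusted p = 0.0454) and 12 h (adjusted p = 0.0187). In that fit 9.19% of genes passed as lower at 2 h. Without the high vehicle array Tap2 was -0.47 at 4 days (adjusted p = 0.057, and 0.0324 with the block).

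Tap1, the partner of Tap2, followed another course. Its levels at 4 h were 8.07, 8.20 and 7.72 with Wy-14,643 and 8.82, 8.61 and 8.61 with vehicle, and at 14 days 8.81, 8.73 and 8.56 against 8.75, 8.64 and 8.56. The groups were apart at 2, 4 and 8 h only, with differences of -0.55, -0.68 and -0.67 (adjusted p 0.251, 0.0786 and 0.0615). The values at 4 and 8 h passed with the replicate block (adjusted p 0.0173 and 0.0144), a fit in which 19% of all gene-by-time differences passed as lower. Those at 12 h (-0.03) and 1 day (-0.07) change sign with the scaling. Tap1 thus passed in the mean alone (adjusted p = 0.000517).

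Tapbp, the tapasin gene that bridges the transporter and class I molecules, was 13.12, 13.27 and 13.32 at 18 h with Wy-14,643 and 13.93, 13.93 and 14.12 with vehicle. The treated arrays were lower without overlap from 8 h to 14 days. Its difference passed at 18 h (-0.75), 24 h (-0.60), 1 day (-0.91) and 4 days (-0.58), and with the replicate block also at 8 h (adjusted p = 0.00896) and 12 h (adjusted p = 0.0148). With the values as deposited the difference was -0.21 at 24 h and -0.29 at 1 day. Over 18 alternative runs it no longer passed in 2 at 24 h, 1 at 1 day and 8 at 4 days. At 4 days it was -0.45 without the high vehicle array (adjusted p = 0.173). The effect varied over the times (F = 2.96, adjusted p = 0.047). A dimmer probe of Tapbp gave smaller mean differences, -0.28 with Wy-14,643 and -0.05 with clofibrate (8 times), against -0.46 and -0.17 with the probe used.

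The class II route also fell in the mean with Wy-14,643, with few single times that passed. All 4 members passed as lower in the Wy-14,643 mean, where 35.6% of all genes did, H2-Ab1 by 0.38 (SE 0.11, adjusted p = 0.00275), H2-Eb1 by 0.38 (SE 0.09, adjusted p = 0.000654), Cd74 by 0.32 (SE 0.13, adjusted p = 0.0302) and H2-Aa by 0.30 (SE 0.09, adjusted p = 0.00285). Their median was -0.35 against -0.68 for the class I route. At single times 2 of 36 differences passed, where 8.48% of all gene-by-time differences did. In 8 of 36 all treated arrays lay below all vehicle arrays, where 19.6% of all did. Neither count is read as a departure from these shares. The within-group standard deviation in this arm was 0.33 to 0.50 for the class II genes and 0.17 to 0.33 for the class I route genes.

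The 4 genes had like values at each time. At 2 h they were -0.78 to -0.93, at 4 h 0.22 to 0.34, at 18 h -0.58 to -0.64, at 1 day 0.05 to 0.34, at 4 days -0.75 to -1.02 and at 14 days -0.04 to -0.16. None of these passed apart from H2-Ab1 (adjusted p = 0.042) and H2-Eb1 (adjusted p = 0.021) at 4 days, when 4.3% of genes passed as lower. With the replicate block all 4 genes passed at 2 h (adjusted p 0.0123 to 0.0237) and 4 days, and H2-Aa, H2-Eb1 and Cd74 at 18 h (adjusted p 0.0207, 0.0487 and 0.0424), which made 11 of 36. In that blocked fit 19% of all gene-by-time differences passed as lower, and 9.19% of genes at 2 h. With the block and without the high vehicle array none of the 4 passed at 4 days (-0.34 to -0.60, adjusted p 0.159 to 0.314). The variation over the times did not pass for any of the 4, H2-Aa having the lowest adjusted p (0.0802), whereas with the block all 4 passed (adjusted p 0.012 to 0.0481), as 56% of all genes then did.

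H2-Ab1, the beta chain of the I-A molecule, shows what lies behind these values. At 2 h its levels were 10.00, 11.05 and 10.98 with Wy-14,643 and 11.59, 11.78 and 11.46 with vehicle, with no overlap. At 4 days they were 10.99, 11.35 and 10.20 against 12.85, 11.50 and 11.25. The groups overlapped at 4 days and the first vehicle array was the highest of that gene in the arm. Without the 3 high vehicle arrays the 4-day difference was -0.53 for H2-Ab1 (adjusted p = 0.419) and -0.52 for H2-Eb1 (adjusted p = 0.311), so that neither passed. Dimmer probes of H2-Ab1 gave mean Wy-14,643 differences of -0.32, -0.30 and -0.22, the last over 7 times, against -0.38 with the probe used.

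H2-Aa, the I-A alpha chain, was the only member with a group wholly above vehicle. At 1 day its levels were 8.68, 8.93 and 8.75 with Wy-14,643 against 8.56, 8.51 and 8.28 with vehicle, a difference of 0.34 that did not pass (adjusted p = 0.361). At 2 h they were 8.00, 8.56 and 8.52 against 9.16, 9.31 and 9.02, wholly below. The slightly dimmer H2-Aa probe gave a mean difference of -0.38 with Wy-14,643 and -0.25 with clofibrate, the latter below 0 at 8 of 9 times. For H2-Eb1, whose protein has no partner chain in this strain, the 2 h levels were 8.80, 8.84 and 9.03 against 10.12, 9.68 and 9.53, again wholly below.

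Cd74, which occupies the peptide groove of new class II molecules, overlapped with vehicle at all 9 times. At 2 h its levels were 10.84, 10.95 and 10.35 with Wy-14,643 and 11.99, 11.69 and 10.78 with vehicle. Its mean difference was -0.27 without the 3 high vehicle arrays and then did not pass (adjusted p = 0.0565).

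Within groups the order of the arrays was shared by the class II genes in some cases. The same array was the highest for all 4 in 16 of the 35 groups with every gene listed, and all 3 arrays had the same order for all 4 genes in 11 of 35. For the 6 class I route genes the same array was highest in 6 of 34 groups and the order was shared in 1. For the 3 immunoproteasome subunits alone the same array was highest in 19 of 36 groups. These counts describe arrays and carry no test. All genes of a set are less likely to share an order the more genes it holds, so the sets are not compared.

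Markers of the cells that could supply class II RNA were counted in the Wy-14,643 mean, where 35.6% of all genes passed as lower. Of the Kupffer cell and macrophage markers 9 of 10 tested passed as lower (median -0.26), among them Clec4f (-0.32), C1qb (-0.33) and Csf1r (-0.28). Of the dendritic cell markers 3 of 4 passed as lower (Zbtb46, -0.33), of the leukocyte common markers 3 of 3 (Laptm5, -0.33), of the T and NK cell markers 3 of 5 (Nkg7, -0.33) and of the B cell markers 1 of 2 (Blnk, -0.85). Stellate cell markers passed as lower in 3 of 5, endothelial markers in 2 of 6 and hepatocyte markers in 1 of 2 (Ttr, -0.70), 4 others being at the scanner limit at 1 or more times. With so few genes, the counts of the dendritic cell, leukocyte, B cell, T and NK cell, stellate, endothelial and hepatocyte lists are not read against the share over all genes. None of these lists had a member that passed as higher.

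By time, the median of the Kupffer cell list was -0.20 at 2 h, 0.20 at 4 h, -0.53 at 24 h, -0.53 at 1 day, -0.61 at 4 days and 0.07 at 14 days. That of the class II genes was -0.84, 0.29, -0.52, 0.21, -0.93 and -0.09 at those times. Both were above 0 at 4 h and below it at 24 h and 4 days, and they differed in sign at 1 day and 14 days. Without the 3 high vehicle arrays the class II genes were -0.38 to -0.53 at 4 days, and none passed. The marker lists at 4 days are given only with these arrays. The mean level of the 10 Kupffer cell markers listed on all arrays was 11.74 to 11.90 with Wy-14,643 and 11.88 to 12.26 with vehicle at 2 h, and 11.20 to 11.55 against 11.74 to 12.28 at 4 days. That of the 4 dendritic cell markers was 7.99 to 8.12 against 8.08 to 8.27 at 2 h, and 7.50 to 7.54 against 7.74 to 8.02 at 4 days. The mean of the 3 leukocyte markers was 9.08 to 9.34 against 9.06 to 9.75 at 2 h, and 8.95 to 9.27 against 9.46 to 10.09 at 4 days. The 2 B cell markers listed on all arrays had a mean of 8.18 to 8.84 against 8.96 to 9.54 at 2 h, and 8.97 to 10.02 against 9.31 to 9.82 at 4 days. At 4 days the treated arrays of the first 3 lists lay below all vehicle arrays, and at 2 h those of the B cell markers alone did. Flt3 and Cd209a of the dendritic cell list had values on 3 arrays and the B cell gene Cd79a on 15, and Pax5, Fcer2a, Cd68, Lck and Ncr1 were not analysed here. The part of these cells in the class II result was not tested.

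**Figure D3:**
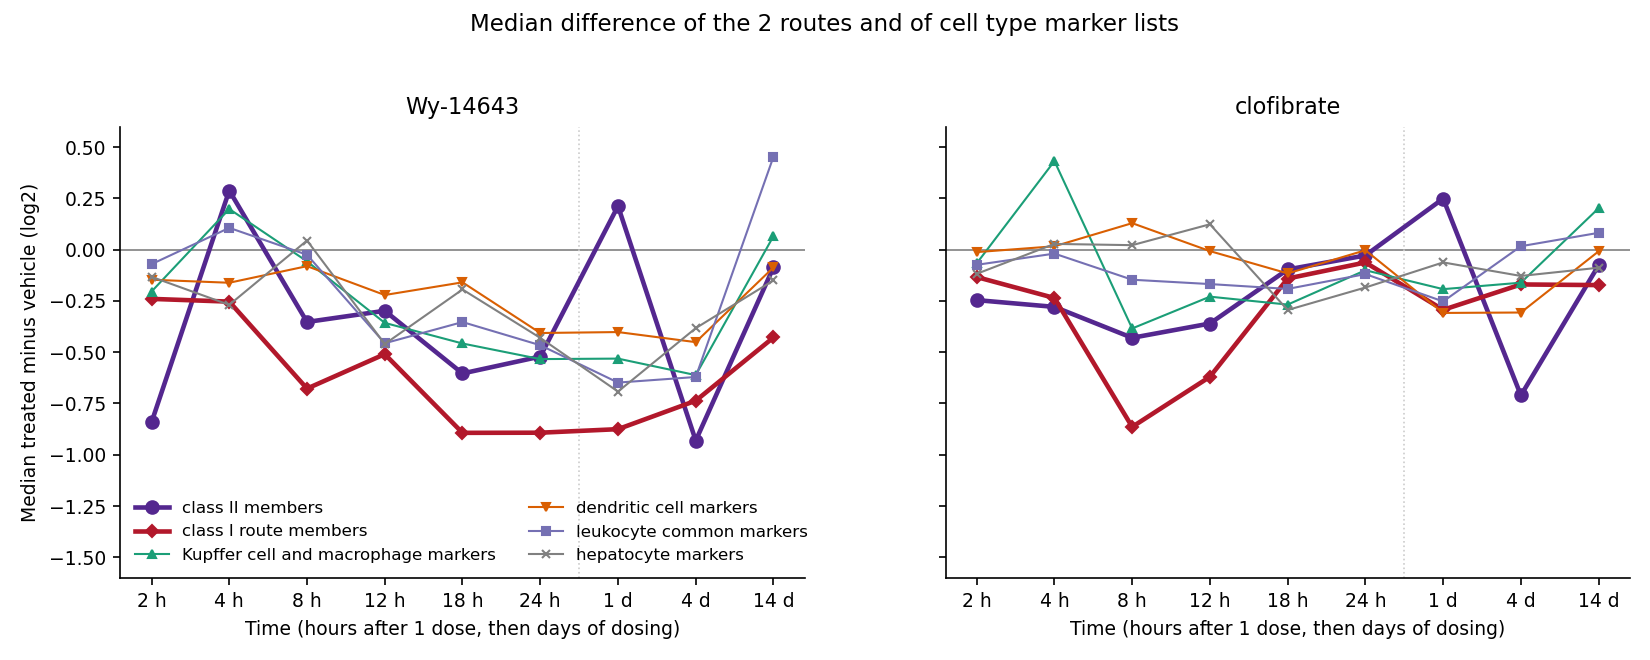
Median treated minus vehicle (log2, vertical axis) of the class I route members, the class II members and 4 marker lists at each time (horizontal axis) for both compounds, over the genes tested at that time. With Wy-14,643 the class II median is -0.84 at 2 h and 0.21 at 1 day, where the Kupffer cell median is -0.20 and -0.53, and the class I route median is -0.89 at 18 and 24 h.

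Clofibrate lowered the immunoproteasome subunits too, by less in the mean. In the mean over the 9 times 3 of the 4 class I route members tested passed as lower, where 2.59% of 8093 genes did: Psmb8 fell by 0.51 (SE 0.09, adjusted p = 0.000142), Psmb9 by 0.44 (SE 0.11, adjusted p = 0.00871) and Psmb10 by 0.31 (SE 0.08, adjusted p = 0.015). Tapbp was -0.17 (SE 0.07, adjusted p = 0.148). Of the class II members 0 of 3 tested passed: H2-Ab1 was -0.35 (adjusted p = 0.119, and 0.0479 with the replicate block), H2-Eb1 -0.23 (adjusted p = 0.213) and Cd74 -0.10 (adjusted p = 0.763). Without the 3 high vehicle arrays Psmb8 (-0.44), Psmb9 (-0.33) and Psmb10 (-0.23) still passed in this mean. Tapbp (-0.12), H2-Ab1 (-0.24), H2-Eb1 (-0.14) and Cd74 (-0.03) did not. At 4 and 14 days Psmb9 was then 0.27 and 0.42, against -0.25 and -0.12 with these arrays. Psmb10 was 0.25 and 0.22, against -0.09 and -0.11, and none of these passed. Over the 7 times at which all 10 members had values, without 8 h and 1 day, Psmb8 alone passed (-0.46, adjusted p = 0.00537), with Psmb9 at -0.34 (adjusted p = 0.197) and Psmb10 at -0.26 (adjusted p = 0.171).

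At single times the members passed at 8 h alone. There 3 of 4 class I route genes passed as lower against 5.12% of genes, Psmb9 at -1.65 (adjusted p = 0.000751), Psmb8 at -1.02 (adjusted p = 0.0121) and Tapbp at -0.71 (adjusted p = 0.0193). Psmb9 levels at 8 h were 11.17, 11.23 and 10.83 with clofibrate and 12.81, 12.56 and 12.81 with vehicle, far apart. At 18 h they were 12.35, 12.38 and 12.66 against 12.61, 11.95 and 12.10, which overlap. Psmb8 levels at 8 h were 12.34, 12.05 and 11.28 against 13.18, 12.81 and 12.73. Psmb10 was -0.64 at 8 h (adjusted p = 0.0841) and -0.87 at 12 h (adjusted p = 0.0645), with treated levels of 14.50, 14.16 and 14.19 against 15.08, 15.05 and 15.33 at 12 h. With the replicate block Psmb10 passed at 8 h (adjusted p = 0.0146) and 12 h (adjusted p = 0.00779). No share over all genes is given here for the blocked clofibrate fit. Without the block no member passed at a time other than 8 h, which made 3 of 51 class I route differences against 0.72% of all, and 11 of 51 with all treated arrays below all vehicle arrays against 5.77%.

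For the class II genes 0 of 35 clofibrate differences passed, where 0.72% of all passed as lower. In 3 of 35 all treated arrays lay below all vehicle arrays, where 5.77% of all did. Neither count is read as a departure from these shares. The largest class II differences stood at 4 days, -0.64 to -1.02, in the presence of the high vehicle array. H2-Ab1 levels at 4 days were 10.32, 10.86 and 10.36 with clofibrate against 12.45, 11.56 and 10.60. Without the high array the 4 genes were -0.24 to -0.57 at 4 days. The Kupffer cell markers in the clofibrate mean had a median of -0.08, with 0 of 10 passing, and no marker of the other lists passed. In that mean 2.59% of all genes passed as lower and 3.36% as higher, and the marker counts are not read against these shares. Variation of the clofibrate effect over the 9 times passed for 0 of 7 members tested, where 2.44% of genes passed, the lowest adjusted p being 0.0955 for Psmb9.

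At the same mass dose the compounds were set against each other as the Wy-14,643 difference minus the clofibrate difference, 1 pair of compounds in 7 members with both means. All 4 class I route members passed as lower with Wy-14,643, where 10.9% of 8045 genes did. The difference was -0.49 for Psmb10 (95% interval -0.72 to -0.26, adjusted p = 0.00109), -0.44 for Psmb8 (-0.68 to -0.20, adjusted p = 0.00483), -0.45 for Psmb9 (-0.74 to -0.16, adjusted p = 0.019) and -0.28 for Tapbp (-0.46 to -0.10, adjusted p = 0.018). Over 21 alternative runs Psmb9 and Tapbp no longer passed in 8 each and Psmb8 in 1, while Psmb10 passed in all 21. For the class II members the intervals included 0: H2-Ab1 -0.04 (-0.38 to 0.31), H2-Eb1 -0.15 (-0.42 to 0.13) and Cd74 -0.22 (-0.57 to 0.12), and the sign for H2-Ab1 and H2-Eb1 turned under another scaling. The interval of Cd74 reached past the differences of all 4 class I route members, while those of H2-Ab1 and H2-Eb1 ended short of the values of the 3 immunoproteasome subunits.

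**Figure D4:**
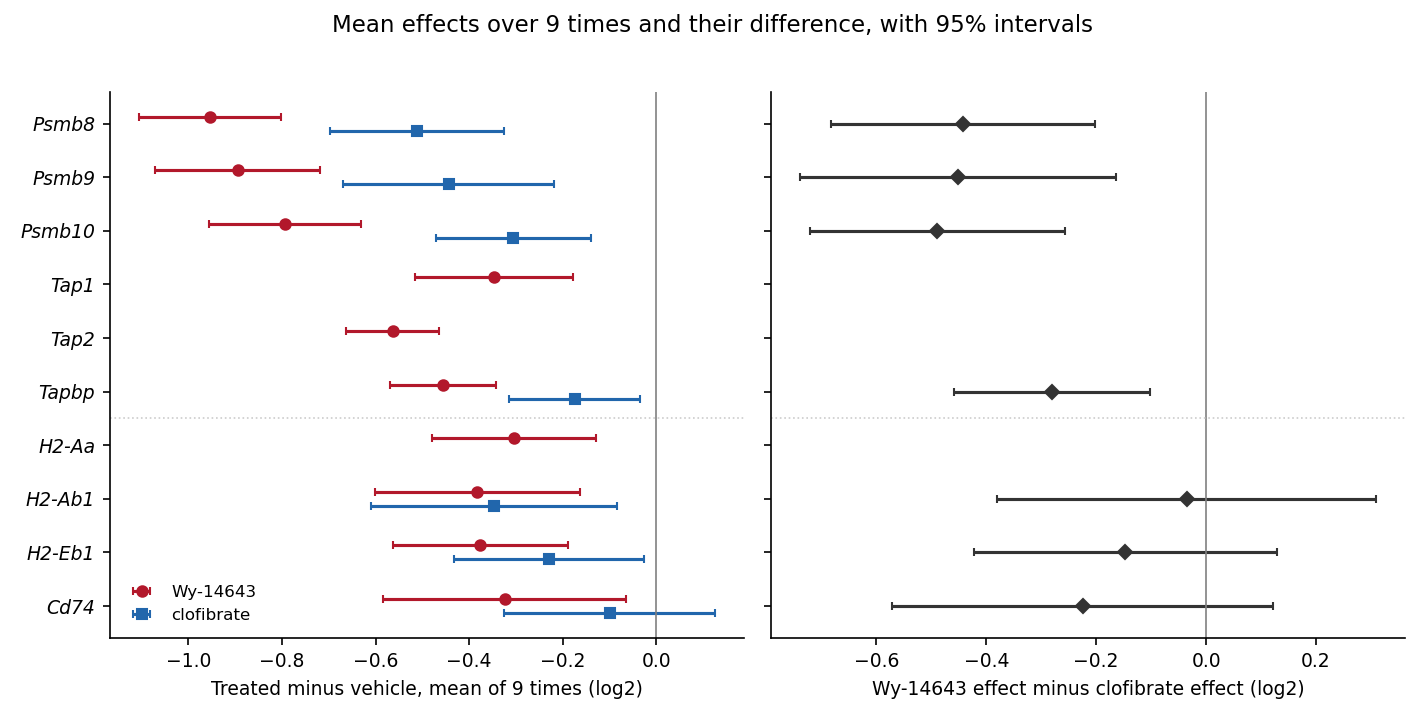
Left, the mean treated minus vehicle difference over 9 times (log2, horizontal axis) with 95% intervals for each gene and compound. Right, the Wy-14,643 effect minus the clofibrate effect with 95% intervals, where Psmb8, Psmb9, Psmb10 and Tapbp lie below 0 (-0.28 to -0.49) and the class II intervals cross 0. Genes without a clofibrate mean have no point there.

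The values of the compounds at single times can be set side by side. At 8 h the Wy-14,643 and clofibrate differences were -1.42 and -1.65 for Psmb9, and -0.67 and -1.02 for Psmb8. At 18 h they were -1.04 and 0.24 for Psmb9, and at 24 h -1.24 and -0.06 for Psmb10. In the fit without the replicate block the difference between compounds did not pass for any member at a single time. The nearest was Psmb10 at 24 h (-1.18, adjusted p = 0.0503), where 0.838% of genes passed as lower. Single-time differences between compounds with the block are not given here. Over the 7 times common to all members, Tap2 also passed (-0.37, adjusted p = 0.026) and Tap1 did not (-0.05, adjusted p = 0.892).

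Vehicle livers gave the background of time without compound. Over 2 to 24 h, Psmb9 (adjusted p = 0.0138), Tap1 (adjusted p = 0.041) and Tap2 (adjusted p = 0.00144) varied with time in the Wy-14,643 arm, as 26% of genes did. In the clofibrate arm 0 of 10 members passed, where 10.3% of genes did. The mean level of Psmb9 ran from 12.08 at 12 h to 13.10 at 24 h in the Wy-14,643 arm, a span of 1.02. Tap1 ran from 8.15 at 12 h to 9.12 at 24 h and Tap2 from 10.09 at 12 h to 10.76 at 2 h, and Tap1, Tap2 and Tapbp were lowest at 12 h in the clofibrate arm also. The vehicle means of the class II genes in the Wy-14,643 arm were lowest at 4 h, H2-Ab1 at 10.84, and highest at 2 h, H2-Ab1 at 11.61, except that Cd74 was highest at 18 h. The treated minus vehicle differences of the 4 genes were above 0 at 4 h and -0.78 to -0.93 at 2 h.

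The constitutive partners of the immunoproteasome subunits went the other way with Wy-14,643. All 3 passed as higher in the mean, where 20.7% of genes did: Psmb5, which Psmb8 replaces, by 0.57 (SE 0.04, adjusted p = 1.51e-15), Psmb7, which Psmb10 replaces, by 0.30 (SE 0.06, adjusted p = 5e-05) and Psmb6, which Psmb9 replaces, by 0.25 (SE 0.08, adjusted p = 0.00519). Psmb5 passed at 6 times, from 12 h (0.53) to 14 days (0.95), and Psmb7 at 1 day (0.66) and 14 days (0.60). With clofibrate 0 of 3 passed, where 3.36% of genes passed as higher, Psmb5 being at 0.15 (adjusted p = 0.267), and the difference between compounds passed for Psmb5 (0.41, adjusted p = 0.00012), where 7.51% of genes passed as higher. Of the PA28 proteasome activator genes Psme1 rose by 0.21 with Wy-14,643 (adjusted p = 0.00147), Psme2 was -0.07 and Psme3 0.05.

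**Figure D5:**
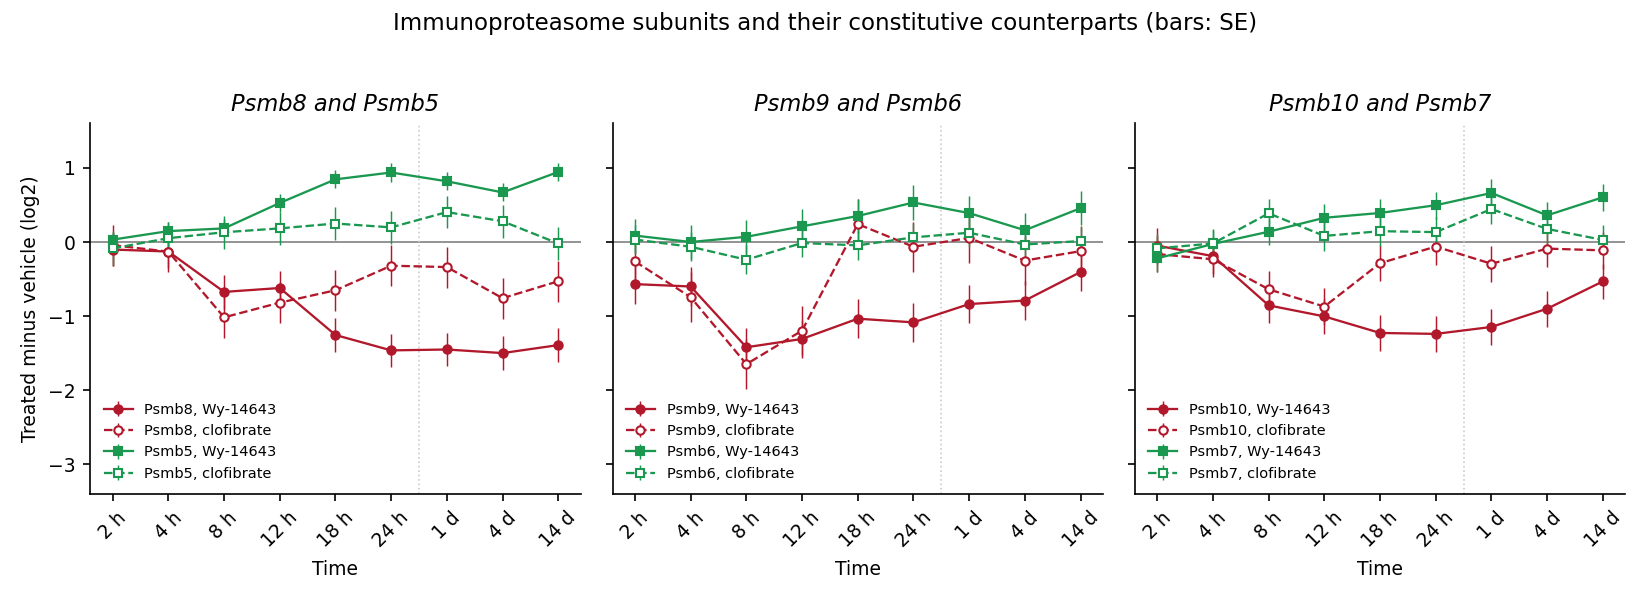
Treated minus vehicle (log2, vertical axis, SE bars) at 9 times (horizontal axis) for each immunoproteasome subunit and the constitutive subunit it replaces, filled and solid for Wy-14,643, open and dashed for clofibrate. With Wy-14,643 Psmb8 is -1.39 and Psmb5 0.95 at 14 days.

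Of 17 listed genes for class I heavy chains and beta-2 microglobulin, 6 could be tested in the Wy-14,643 mean and 5 passed as lower, where 35.6% of all genes did. The main heavy chain genes H2-K1 and H2-D1, with H2-Q2, H2-Q4, H2-Q10 and H2-T23, had values on all 108 arrays but were not tested, because at 1 or more times both groups lay at the scanner limit on every array. H2-Q1 fell by 0.95 (adjusted p = 2.36e-08) and by 2.44 at 14 days (adjusted p = 4.48e-06), H2-T22 by 0.58, H2-M3 by 0.39, H2-Q7 by 0.35 and H2-Q8 by 0.27, while B2m, the light chain, was -0.12 (adjusted p = 0.0601). Class I genes are near copies of each other, so a probe may read several of them. With clofibrate H2-T22 (-0.35, adjusted p = 0.000447) and H2-Q8 (-0.30, adjusted p = 0.0162) passed among 5 tested, where 2.59% of all genes did. Of the loading and trimming partners 4 of 7 fell in the Wy-14,643 mean, against 35.6% of all genes, the trimming enzyme Erap1 (-0.38), the tapasin relative Tapbpl (-0.34) and the chaperones Calr (-0.26) and Pdia3 (-0.25), and Tpp2 rose (0.11). With clofibrate 0 of 6 of them passed.

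Of the class II partners 4 of 5 tested fell in the Wy-14,643 mean, where 35.6% of all genes did: H2-DMb1 (-0.36) and H2-DMa (-0.25), which edit the peptides of class II molecules, and the proteases Ctss (-0.29) and Lgmn (-0.23). Ifi30 was -0.12 (adjusted p = 0.164), and with clofibrate 0 of 4 passed. The RFX subunit genes Rfxank (-0.23) and Rfxap (-0.17) fell with Wy-14,643. Ciita, the class II transactivator, had no value in the mean and passed at 4 days alone (-0.99, adjusted p = 0.0284). Without the high vehicle array that difference was -0.45 and did not pass (adjusted p = 0.407).

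Of the regulators of interferon gamma signalling 6 of 9 tested passed as lower and 1 as higher in the Wy-14,643 mean, where 35.6% and 20.7% of all genes did. Irf1, a transcription factor of the immunoproteasome and transporter genes, fell by 0.81 (SE 0.07, adjusted p = 4.7e-13), Irf2, which binds the same sites, by 0.71 (SE 0.05, adjusted p = 9.38e-15), and the kinases Jak1 and Jak2 by 0.34 and 0.22. Irf8 and Irf9 fell by 0.25 and 0.24, and the receptor chain Ifngr2 rose by 0.23. Irf1 passed at 2 h (-0.77, adjusted p = 0.0257), where 2.25% of genes passed as lower, and was lowest at 12 h (-1.23, adjusted p = 2.1e-05). At 2 h no member passed in the same fit, but Tap2 and the 4 class II genes did with the replicate block. The order of these changes and any link between Irf1 and the members were not tested. Irf2 passed at 8 of 9 times, the exception being 4 days (-0.34). With clofibrate Irf1 fell by 0.52 in the mean (adjusted p = 2.93e-06) and passed at 4 h (-0.89) and 8 h (-1.14), and Irf2 passed at 8 h (-1.42, adjusted p = 0.00051). Both were lower with Wy-14,643 than with clofibrate, Irf1 by -0.28 (adjusted p = 0.0462) and Irf2 by -0.47 (adjusted p = 0.000774).

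Over the 18 comparisons, which share vehicle groups by time and arm, the genes outside the 10 members whose differences ran most like the class I route median, among 8038 with all 18 values, were Pbxip1 (Pearson r 0.928), Traf7 (0.913), Arpc1b (0.904), Ip6k1 (0.886) and Parp14 (0.886). For the class II median they were H2-DMb1 (0.892), Clec7a (0.832), Pcolce (0.687), Hsd17b11 (0.667) and Tgtp1 (0.666). H2-DMb1 and Clec7a, a receptor of myeloid cells, thus stood apart from the rest of the class II list. These correlations describe the 18 points and carry no test. They do not say whether a gene rose or fell. In the mean over the times Hsd17b11 rose, by 0.69 with clofibrate and 0.52 with the other compound. The remaining genes named here had negative means with both compounds. Traf7 had the smallest, -0.05 with clofibrate and -0.14 with the other compound.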

How the data were processed

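The deposited values are log2 intensities of 108 single-colour Cy3 Agilent arrays, made by the authors. Per the labels' protocols RNA was extracted with TRIzol. The image processing, background correction and any normalization are not given in the sources used here. Of the values deposited, 51.4% were empty, for whole groups of 3 arrays. Of 41096 probes, 32609 had 1 gene symbol in the platform annotation, 44 several and 8443 none. The number of arrays limits the precision.

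Each array was scaled to the 75th percentile of the 12210 probes listed on all arrays. The brightest probe stood for a gene. limma 3.58.1 in R 4.3.3 fitted a mean per group within each arm (54 arrays), or over all 108 for the difference between compounds, with eBayes and trend, and Benjamini-Hochberg adjustment per comparison at 0.05. A gene was tested where every group needed had values and at no time used both groups lay at the scanner limit (within 0.02 of it on the log2 scale) on all arrays. The fit was tested on simulated data. The members, pathway lists and marker lists were chosen with earlier results of these data known. All members are named. Of the lists, genes that passed in a mean with either compound, or the extremes of a list, may be named. Ciita, named at 4 days, was chosen after its values were seen. Like-pattern genes are the 5 highest correlations per route.

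Same-numbered treated and vehicle arrays deviated together (every correlation over 0.1) in 9 of 9 Wy-14,643 and 7 of 9 clofibrate comparisons. Blocked values stand beside the members' results whose call they change, but none are given for the differences between compounds at single times. The design text speaks of biological replicates.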

Additional observations from a re-analysis of the deposited data

Results flagged for a closer look

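The effect of Wy-14,643 varied over the 9 times, by limma's F test of the difference itself, for Psmb8 (F = 6.52), Psmb10 (F = 3.33) and Tapbp (F = 2.96). Its mean effect differed from that of clofibrate by -0.49 for Psmb10, -0.44 for Psmb8, -0.45 for Psmb9 and -0.28 on the log2 scale for Tapbp, again by a test of the difference. For Psmb9 and Tapbp this difference no longer passed in 8 of 21 alternative runs each. For H2-Aa with Wy-14,643 all treated arrays lay above all vehicle arrays at 1 day (0.34), while at 2 and 18 h all lay below. This contrast between times was not tested by itself. No test for single outlying arrays was applied to groups of 3, and the 3 high vehicle arrays were singled out after their values were seen.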

How the results depend on the processing

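In the Wy-14,643 mean all class I route members tested passed under every alternative run, 6 of 6 except 4 of 4 with averaged probes and 5 of 5 with the dimmest genes left out, and its single-time count (28) stayed within 22 to 33 when each replicate was left out. Counts that moved are given by setting. With the values as deposited, members varying over the times were 8 with Wy-14,643 (3 in the report) and 1 with clofibrate (0), the class II mean count with Wy-14,643 was 2 (4) and the class I compound difference 2 (4). With the 75th percentile over all listed probes and with quantile normalization, the class II counts with clofibrate were 2 in the mean and 3 at single times under both, those with Wy-14,643 at single times 5 and 4, members varying over the times 5 and 5 with Wy-14,643 and 2 and 3 with clofibrate, and the compound difference 2 under both. Quantile normalization also gave 5 class I route differences and 1 vehicle gene in the clofibrate arm. Median scaling gave 1 class II difference with Wy-14,643, and averaging probes 1 member varying in its vehicle livers. With the replicate block the clofibrate counts were 5 for single-time class I route differences and 1 for the class II mean, and the Wy-14,643 counts 11 for single-time class II differences and 7 for variation over the times. The block changed no other of these counts by over 1.5 times. Leaving out each replicate in turn gave, with clofibrate, 1 to 3 class I route members in the mean (1 without treated replicate 2 or vehicle replicate 1), 1 to 5 at single times (1 without treated replicate 3, 5 without vehicle replicate 1) and 0 to 1 varying over the times (1 without vehicle replicate 1). With Wy-14,643 it gave 1 to 4 class II members in the mean (1 without treated replicate 1), 0 to 4 at single times (0 without treated replicate 1 or 3, 1 without vehicle replicate 1 or 2, 4 without vehicle replicate 3), 1 to 3 varying over the times (1 without treated replicate 1, 2 or 3, each in turn, 1 without vehicle replicate 2 and 2 without vehicle replicate 3), 0 to 3 varying in vehicle livers (1 without vehicle replicate 2, 0 without vehicle replicate 3) and 1 to 4 in the compound difference (1 without vehicle replicate 2, 2 without treated replicate 3 or vehicle replicate 3). Without the near-identical vehicle array at 4 or at 14 days, the clofibrate counts were 5 for single-time class I route differences and 1 for variation over the times, each time. The mean over 8 times, without 1 day, gave 2 for the compound difference. Chosen after seeing the data, the mean over 7 times gave 1 clofibrate class I route member (of 6), and leaving out the 3 high vehicle arrays gave, in the clofibrate arm, 6 single-time class I route differences, 1 member varying over the times and 1 varying in vehicle livers. With the replicate block and without these arrays together, the clofibrate counts were 9 for single-time class I route differences, 1 for those of class II and 1 for variation over the times, the Wy-14,643 counts 8 for single-time class II differences and 7 for variation over the times, and 1 class II member passed in the compound difference (Cd74, -0.32), while the clofibrate mean of Cd74 turned from -0.10 to 0.033. The compound difference of H2-Ab1 turned from -0.035 to 0.043 with the values as deposited, 0.051 with the percentile over all listed probes, 0.099 with quantile normalization and 0.0034 with averaged probes, and ran from -0.12 to 0.057 when each replicate was left out (0.057 without treated replicate 1, 0.016 without vehicle replicate 3), and that of H2-Eb1 turned from -0.15 to 0.037 with quantile normalization. The causes were not tested. The scaling moved the median of all genes at 1 day with Wy-14,643 from -0.15 to 0.47 with the values as deposited, and at 8 h with clofibrate from 0.04 to -0.50 with quantile normalization. Tests of single members were tallied under all settings for the means and for the single times that passed in the report. Of these, 949 kept direction and side of the threshold, 106 no longer passed, 9 newly passed and 8 reversed. Single times that did not pass in the report are outside this tally, so those that newly passed are not counted in it.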
